A study of Mus musculus with 6 samples.

Results

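Cathepsins are the proteases of the lysosome, and cystatin C is the secreted inhibitor of those among them that are built like papain. The 10 genes described here are the cathepsin genes Ctsa, Ctsb, Ctsc, Ctsd, Ctsh, Ctsk, Ctsl, Ctss and Ctsz and the cystatin C gene Cst3, taken by gene symbol from a table of 21878 genes. All 10 passed the filter on low counts, among 11459 genes tested. RNA was sequenced from wild-type C57BL/6 bone marrow-derived macrophages, cultured in 50 ng/mL of macrophage colony-stimulating factor (M-CSF). For 48 h the macrophages were kept in a transwell system, whose 0.4 µm pores pass medium but not cells, opposite LLC cells (Lewis lung carcinoma of mouse). The medium was then changed. For 24 h the cells of 3 libraries were given 100 µg/mL of the plant compound β-elemene, and those of the other 3 an equal amount of phosphate-buffered saline (PBS). The submitters' library names carry M1 for β-elemene and M2 for PBS, without saying what the letters mean. Co-culture was common to both groups, so no library shows the macrophages without tumour-conditioned medium. Whether replicates came from separate cultures or animals is not stated, so every p-value here reflects variation among these 6 libraries that could be technical only. Total gene counts were 18916844 to 20729887 per library.

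Most cathepsins are made as inactive precursors, tagged with mannose 6-phosphate in the Golgi, carried to endosomes by mannose 6-phosphate receptors and activated there by cleavage. Most of the papain-like members cut proteins from within or trim their ends, cathepsin D is an aspartic protease, and cathepsin A is a serine carboxypeptidase. In macrophages they digest engulfed protein, prepare peptides for MHC class II and, when secreted, cut extracellular matrix. Cystatin C limits the papain-like enzymes outside the cell. Transcript levels were measured here, not protein, secretion or enzyme activity.

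Ctsc, which encodes cathepsin C, was the one member called higher with β-elemene under all 4 scalings of the libraries tried (TMM, median of ratios, upper quartile and library size alone). It stood 5.33-fold higher after TMM scaling and 3.43-fold higher by library size alone. The other 9 members stayed close to each other. Their log2 fold changes (β-elemene over PBS) ran from -0.04 to 0.45 after TMM scaling and from -0.68 to -0.19 by library size alone. TMM (trimmed mean of M-values) assumes that most genes do not change between libraries. With TMM scaling 5 of 10 members were higher (Ctsc, Ctsl, Cst3, Ctsz and Ctsa) and 0 were lower (edgeR quasi-likelihood test, adjusted p below 0.05 over all genes tested), where 76.7% of all genes tested were called, 36.6% higher and 40.2% lower. At an edgeR p below 0.05 without adjustment, 0 members were lower as well, and the share of all genes lower at that cut is not given here. DESeq2 and limma-voom also gave 0 members lower, where they called 4211 and 4581 of the 11459 genes lower. By library size alone 1 of 10 was higher and 9 were lower, where 88.7% of all genes were called, 18.9% higher and 69.8% lower. Groups did not overlap for 6 of 10 members on the TMM scale, where they did not for 79.9% of all genes. With library size they did not overlap for any of the 10, 9 of them lower, against 89.6% of all genes and 70.4% lower. Over all genes tested, the median log2 fold change is -0.70 with library size and -0.06 with TMM. Relative to that median, each member's difference was the same under both: 2.47 for Ctsc, 0.51 for Ctsl, 0.41 for Cst3, 0.36 for Ctsz, 0.30 for Ctsa, and 0.02 to 0.24 for the other 5. The members' own median was 0.21 after TMM scaling. The direction of a member other than Ctsc therefore cannot be stated without the scaling, and each call below names it. These are bulk libraries, in which fewer cells of a type and less RNA per cell cannot be told apart.

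The start regions of 4 members are shown because they belong to the member that was higher under each scaling (Ctsc) and to the 3 members with the most counts among those with a window (Ctss, Ctsd and Ctsl). Each window, from RefSeq on GRCm38.p6, runs from 250 bases before to 50 bases after an annotated start, 5′ to 3′ on the gene's strand. For Ctsc and Ctsl that start lies inside the gene span given further on, and for Ctsl the whole window does. Capitals mark matches to the E-box CACGTG, to the core of the interferon-stimulated response element (GAAA, any 2 bases, GAAA) and to the gamma-activated site TTCNNNGAA, searched on both strands.
Ctsc (chr7:88277835-88278134, plus strand): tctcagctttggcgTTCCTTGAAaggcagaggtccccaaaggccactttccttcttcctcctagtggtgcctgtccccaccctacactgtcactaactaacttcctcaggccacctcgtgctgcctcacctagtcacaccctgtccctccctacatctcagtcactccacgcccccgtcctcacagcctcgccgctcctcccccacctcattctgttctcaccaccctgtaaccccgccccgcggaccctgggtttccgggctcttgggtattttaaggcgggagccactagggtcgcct
Ctss (chr3:95526536-95526835, plus strand): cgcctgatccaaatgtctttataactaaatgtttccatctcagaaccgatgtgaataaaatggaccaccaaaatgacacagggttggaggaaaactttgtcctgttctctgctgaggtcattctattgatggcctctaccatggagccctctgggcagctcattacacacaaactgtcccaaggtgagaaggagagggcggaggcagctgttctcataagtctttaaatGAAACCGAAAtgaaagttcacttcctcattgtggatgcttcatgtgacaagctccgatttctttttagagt
Ctsd (chr7:142387778-142388077, minus strand): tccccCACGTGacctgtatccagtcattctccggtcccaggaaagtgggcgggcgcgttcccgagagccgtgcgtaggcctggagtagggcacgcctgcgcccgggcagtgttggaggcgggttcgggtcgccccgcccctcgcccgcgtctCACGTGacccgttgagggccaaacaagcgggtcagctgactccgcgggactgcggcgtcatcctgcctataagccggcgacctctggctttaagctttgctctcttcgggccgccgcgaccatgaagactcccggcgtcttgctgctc
Ctsl (chr13:64370471-64370770, minus strand): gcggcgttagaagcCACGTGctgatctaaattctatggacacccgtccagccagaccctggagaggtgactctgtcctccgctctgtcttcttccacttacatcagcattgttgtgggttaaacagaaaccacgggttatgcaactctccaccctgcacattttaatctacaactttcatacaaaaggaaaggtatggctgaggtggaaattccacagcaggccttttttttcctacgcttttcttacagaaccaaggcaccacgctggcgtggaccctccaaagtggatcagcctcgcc

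Windows were held for 8 of the 10 members, all but Ctsb and Ctsh. The E-box was in a window of Ctsa, Ctsd and Ctsl, and in 7.15% of 32851 promoter windows of the same length. For Ctsa it was in the window 164833523 to 164833822, whose start falls inside the gene span. Another Ctsa window, 164832622 to 164832921, at the start of that span, held no E-box. A member was counted if any window of it matched, whereas the percentages are per window. In Ctsa and Ctsd the E-box lay within TCACGTG, part of the element through which TFEB-family factors are known to bind lysosomal genes and present in 3.77% of all windows. Ctss held the core of the interferon-stimulated response element at -21 to -12 relative to the start, as did 3.44% of all windows. Ctsc held TTCNNNGAA at -236 to -228, as did 8.30% of all windows. The GC box GGGCGG was in 5 of the 8 members' windows and 35.7% of all, and the PU.1 core AGAGGAAG in 0 of 8 and 4.55% of all, both left in lower case. A match is only a match of letters, and binding was not measured.

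Cathepsin C, also called dipeptidyl peptidase I, removes dipeptides from protein ends and is known for activating the serine proteases of granules. Ctsc (chromosome 7, 88278024 to 88315861, plus strand) had 1747, 1436 and 1667 CPM (the gene's count scaled to a common library total) after TMM scaling in β-elemene replicates 1, 2 and 3, against 305, 273 and 332 CPM in PBS replicates 1, 2 and 3. All 3 β-elemene libraries lay far above all 3 PBS libraries. Its log2 difference of 2.41 (SE 0.09, quasi-likelihood test in edgeR, adjusted p = 8.79e-11) was larger than that of 93.6% of all genes tested. On library size alone Ctsc averaged 1295 ± 118 CPM with β-elemene and 378 ± 37.1 CPM with PBS (SD, n = 3 each), which is 1.78 on the log2 scale (SE 0.09, adjusted p = 3.70e-10 in edgeR). Over the alternatives tried, its adjusted p ranged from 1.85e-138 to 1.02e-08.

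**Figure D1:**
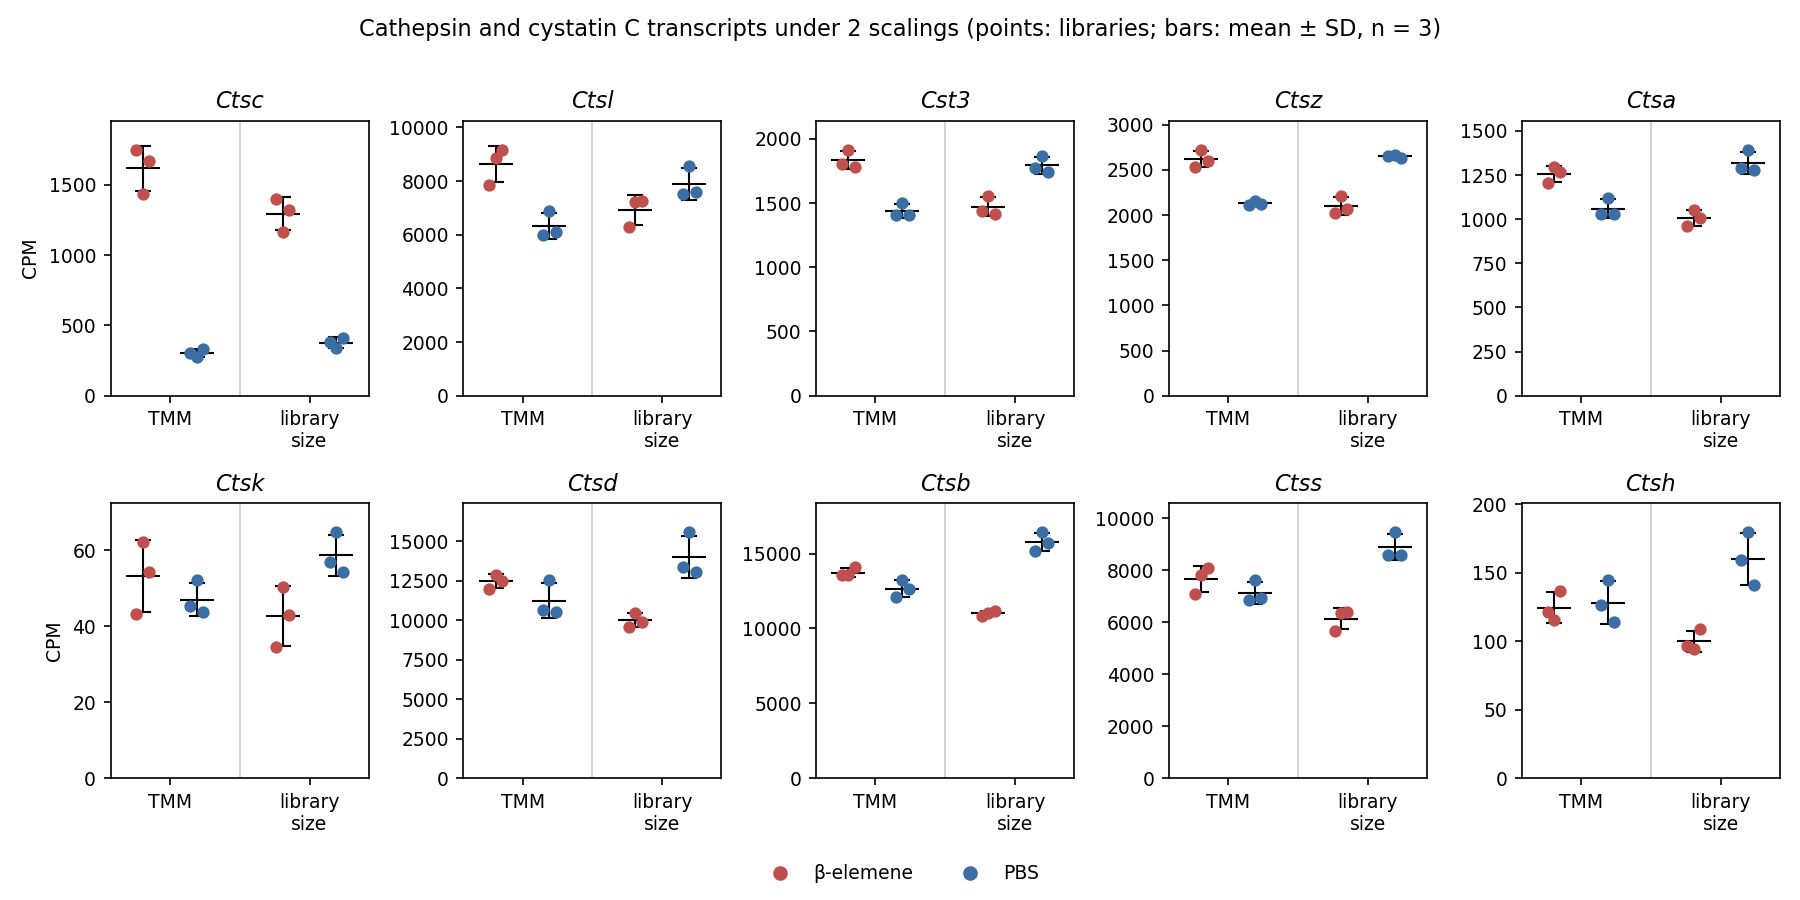
CPM (y axis, from 0) of each of the 10 genes in each library, scaled by TMM on the left of each panel and by library size alone on the right, with β-elemene in red, PBS in blue and bars for mean ± SD of 3 libraries. Ctsc stands higher with β-elemene on both scales, while Ctsl, Cst3, Ctsz and Ctsa stand higher on the TMM scale and lower by library size.

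Cathepsin L is an endopeptidase of lysosomes that also cuts matrix proteins when secreted. Ctsl (chromosome 13, 64361890 to 64370772, minus strand) had 7863, 8876 and 9158 CPM after TMM scaling in the β-elemene libraries, against 5987, 6898 and 6115 CPM in the PBS libraries. The groups did not overlap on that scale. Ctsl was higher by 0.45 on the log2 scale (SE 0.08, edgeR adjusted p = 2.98e-04) with TMM, was not called at 0.13 with the upper quartile (edgeR adjusted p = 0.158) and was lower by library size alone at -0.19 (edgeR adjusted p = 0.0395). After Ctsc it had the highest fold change of the 10 genes on each of these scales.

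Cathepsin S, unlike most of the family, keeps its activity at neutral pH and is known for removing the invariant chain from MHC class II in antigen-presenting cells. Ctss (chromosome 3, 95526786 to 95556405, plus strand) had 7082, 7828 and 8062 CPM after TMM scaling with β-elemene, against 6833, 7607 and 6918 CPM with PBS. The groups overlapped, and the difference of 0.11 did not pass (SE 0.08, edgeR adjusted p = 0.235). With library size it was lower, at 6138 ± 415 CPM against 8874 ± 495 CPM (SD, n = 3 each, edgeR adjusted p = 1.40e-05). Cd74, which encodes the invariant chain, had 1136 ± 83.5 CPM after TMM scaling with β-elemene and 990 ± 227 CPM with PBS (SD, n = 3 each), which did not pass (edgeR adjusted p = 0.279). By library size alone Cd74 was lower, at -0.44 on the log2 scale (edgeR adjusted p = 0.0321).

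Cathepsin B, which both cuts within proteins and trims their carboxyl ends, took more counts than any other member. Ctsb (chromosome 14, 63122462 to 63145923, plus strand) had 220244, 208020 and 230009 counts with β-elemene and 311705, 340057 and 324339 counts with PBS. On library size alone it was lower (log2 fold change -0.52, SE 0.07, edgeR adjusted p = 7.14e-06). After TMM scaling it averaged 13731 ± 323 CPM with β-elemene and 12643 ± 568 CPM with PBS (SD, n = 3 each), groups that did not overlap but whose difference of 0.12 did not pass (edgeR adjusted p = 0.153). DESeq2, whose size factors sit close to TMM, did call it, at 0.16 (adjusted p = 0.0125).

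Cathepsin Z, also called cathepsin X, is a carboxypeptidase. Ctsz (chromosome 2, 174427494 to 174439039, minus strand) had 2537, 2720 and 2603 CPM after TMM scaling with β-elemene, against 2111, 2150 and 2125 CPM with PBS. The PBS libraries lay close together and below each β-elemene library. Its log2 fold change was 0.30 with TMM (SE 0.06, edgeR adjusted p = 7.33e-04), -0.02 with the upper quartile and -0.34 by library size alone (edgeR adjusted p = 1.82e-04).

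Cathepsins H and K were the scarce members. Cathepsin H is an aminopeptidase, and Ctsh (chromosome 9, 90054267 to 90076095, plus strand) had 121, 116 and 137 CPM after TMM scaling with β-elemene, against 126, 144 and 114 CPM with PBS. These groups overlapped, and the log2 fold change of -0.04 did not pass (SE 0.09, edgeR adjusted p = 0.682). With library size Ctsh was lower, at -0.68 (edgeR adjusted p = 9.57e-06), the lowest value of the 10 genes. Cathepsin K is the collagen-cutting protease of osteoclasts, and Ctsk (chromosome 3, 95499210 to 95509387, plus strand) had 702, 954 and 884 counts with β-elemene against 1168, 1341 and 1123 counts with PBS. After TMM scaling that is 43.2, 62.1 and 54.2 CPM against 45.2, 52.1 and 43.8 CPM. The β-elemene libraries enclosed the PBS libraries on that scale, and the difference of 0.18 did not pass (SE 0.13, edgeR adjusted p = 0.233). β-elemene replicate 1 was the low library, and without it Ctsk was called higher at 0.32 (edgeR adjusted p = 0.00768). Ctsk and Ctss are direct neighbours on the same strand, 17398 bases apart.

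The osteoclast marker list leaves Ctsk out. Of its 8 genes tested, 4 were higher and 4 lower after TMM scaling (2 higher and 4 lower by library size alone), and the summed level of the list was 747 to 861 CPM with β-elemene and 837 to 1017 CPM with PBS. Acp5, the tartrate-resistant phosphatase of osteoclasts, had 464 ± 70.7 CPM with β-elemene and 156 ± 7.90 CPM with PBS (SD, n = 3 each). Itgb3, the integrin β chain of osteoclasts, had 5.86 ± 1.1 CPM with β-elemene and 87.2 ± 8.96 CPM with PBS (SD, n = 3 each). Oscar had 0 to 3 counts per library and Calcr 0 to 4. Their part in the level of Ctsk was not tested.

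Cathepsin D is the main aspartic protease of lysosomes. Ctsd (chromosome 7, 142375910 to 142387827, minus strand) had 11994, 12882 and 12471 CPM after TMM scaling with β-elemene, against 10643, 12519 and 10536 CPM with PBS. PBS replicate 2 lay within the range of the β-elemene libraries, and the other PBS libraries lay below all of them. The difference of 0.15 did not pass (SE 0.08, edgeR adjusted p = 0.123), and without PBS replicate 2 it was called higher at 0.23 (edgeR adjusted p = 0.0172). DESeq2 called Ctsd higher with no library left out, at 0.19 (adjusted p = 0.0239). With library size Ctsd was lower, at -0.49 (SE 0.08, edgeR adjusted p = 6.35e-05).

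Cathepsin A protects β-galactosidase and neuraminidase 1 in a lysosomal complex. Ctsa (chromosome 2, 164832872 to 164841032, plus strand) had 1203, 1295 and 1270 CPM after TMM scaling with β-elemene, against 1028, 1121 and 1030 CPM with PBS. The log2 fold change was 0.25 with TMM (SE 0.06, edgeR adjusted p = 0.00362), -0.07 with the upper quartile and -0.39 by library size alone (edgeR adjusted p = 5.62e-05). Its partners Glb1, β-galactosidase, and Neu1, neuraminidase 1, stood at 0.14 and 0.17 with TMM (edgeR adjusted p = 0.0314 and 0.0221) and were lower by library size alone, at -0.49 and -0.46.

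Cystatin C, the inhibitor, had a fold change between those of Ctsl and Ctsz. Cst3 (chromosome 2, 148871722 to 148875512, minus strand) had 1802, 1913 and 1782 CPM after TMM scaling with β-elemene, against 1409, 1503 and 1406 CPM with PBS. It was higher by 0.35 on the log2 scale with TMM (SE 0.06, edgeR adjusted p = 2.46e-04), was not called at 0.03 with the upper quartile, and was lower at -0.29 by library size alone (edgeR adjusted p = 8.27e-04). Set against the summed counts of the 7 papain-like cathepsins in the same library, which needs no scaling, Cst3 came to 5.47%, 5.53% and 4.98% with β-elemene and 5.13%, 4.95% and 4.97% with PBS. These ranges overlapped, and the difference in means of 0.311 percentage points did not pass an exact two-sided permutation test (p = 0.20, where 0.10 is the smallest that 3 against 3 allows).

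**Figure D2:**
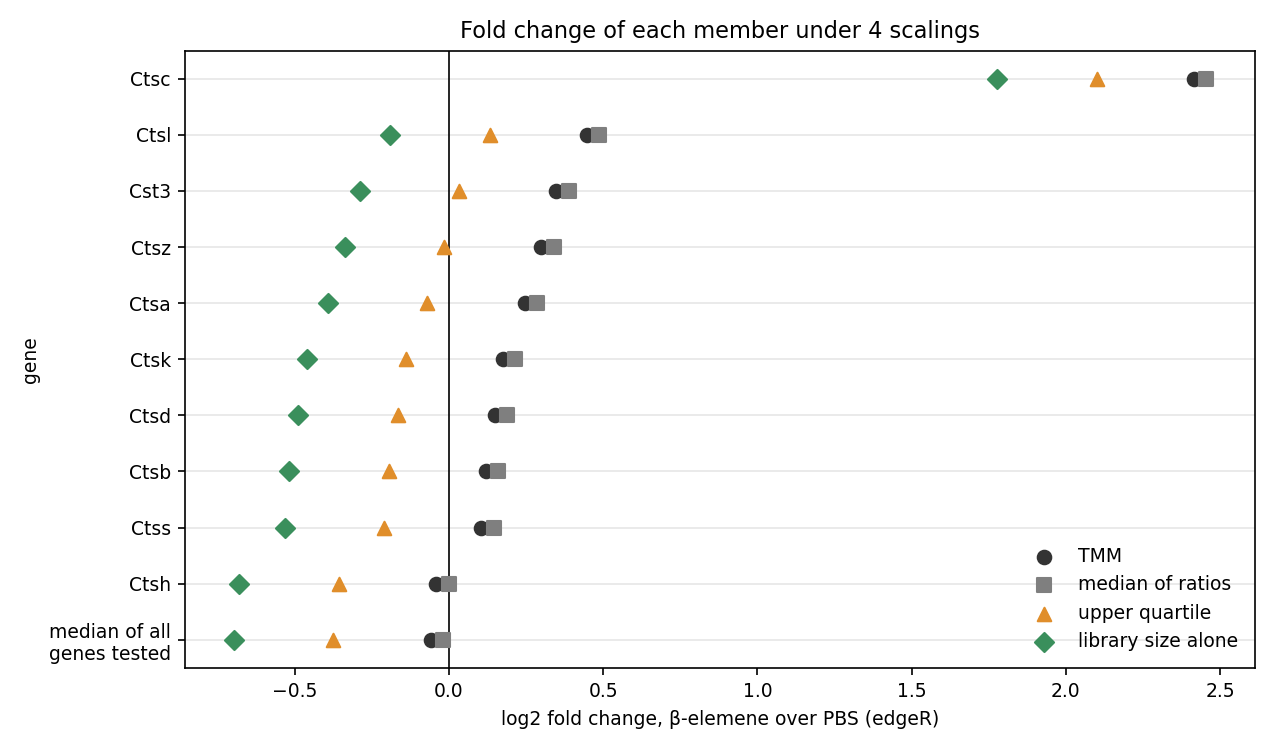
Log2 fold change (x axis, β-elemene over PBS) of each gene and the median of all genes tested (rows) under 4 scalings, shown by symbol. Ctsc lies between 1.78 and 2.46 under all 4, while 8 of the other members change sign between TMM and library size, and Ctsh stays at or below 0.

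Ratios between genes within a library do not depend on the scaling between libraries, whereas a share of all counts is itself the library-size scale. The 10 genes took 3.83%, 4.11% and 4.07% of all gene counts in the β-elemene libraries and 5.10%, 5.65% and 5.12% in the PBS libraries. By library size the sum was thus lower in each β-elemene library (exact two-sided permutation p = 0.10, the smallest possible). After TMM scaling the sum was instead higher, at 47938 to 51307 CPM with β-elemene against 40561 to 45478 CPM with PBS. Ctsc made up 3.64%, 2.83% and 3.25% of the 10-gene sum with β-elemene, against 0.751%, 0.600% and 0.805% with PBS, a mean share 4.51 times as large. Ctsl made up 17.3% ± 0.758 against 14.9% ± 0.221 (SD, n = 3 each). Ctss was the reverse, at 15.3% ± 0.485 with β-elemene and 16.8% ± 0.0611 with PBS (SD, n = 3 each). Ctsb took 27.5% ± 0.764 with β-elemene and 29.8% ± 0.800 with PBS (SD, n = 3 each), and Ctsd took 24.9% ± 0.565 against 26.4% ± 1.01 (SD, n = 3 each). Groups did not overlap for these 5 shares or for that of Ctsh, 6 of 10 in all, where counts set against the same sum did not overlap for 79.4% of all genes tested.

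The ratio of Ctsl to Ctss counts was 1.11, 1.13 and 1.14 with β-elemene, against 0.876, 0.907 and 0.884 with PBS. Ctsl thus had more counts than Ctss in each β-elemene library and fewer in each PBS library, and the ratio was 1.27-fold higher with β-elemene. Its exact two-sided permutation p was 0.10, the smallest possible, as it was for each ratio whose groups did not overlap. Over the 45 pairs of members the smallest adjusted p was 0.161. Of the shares, those of Ctsa, Ctsk, Ctsz and Cst3 overlapped between groups.

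Which shares overlapped depends in part on Ctsc being in the sum. With Ctsc left out of it, Ctsl came to 17.8% ± 0.733 with β-elemene and 15% ± 0.207 with PBS, and Ctss to 15.8% ± 0.459 with β-elemene and 16.9% ± 0.0731 with PBS (SD, n = 3 each). The shares of Ctsl, Ctss and Ctsh still did not overlap between the groups. Those of Ctsb (28.4% ± 0.909 with β-elemene and 30.0% ± 0.836 with PBS) and Ctsd (25.8% ± 0.552 with β-elemene and 26.6% ± 0.991 with PBS) then did overlap (SD, n = 3 each, exact permutation p = 0.20 and 0.30). The shares of Ctsa (2.6% ± 0.0365 with β-elemene and 2.52% ± 0.0364 with PBS) and Cst3 (3.79% ± 0.176 with β-elemene and 3.42% ± 0.0888 with PBS) no longer overlapped (SD, n = 3 each, exact permutation p = 0.10 for both). Ctsk and Ctsz overlapped with either sum. How many of all genes did not overlap when set against the sum without Ctsc was not computed. Against the 10-gene sum it was 79.4%, so shares that did not overlap were common among all genes.

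**Figure D3:**
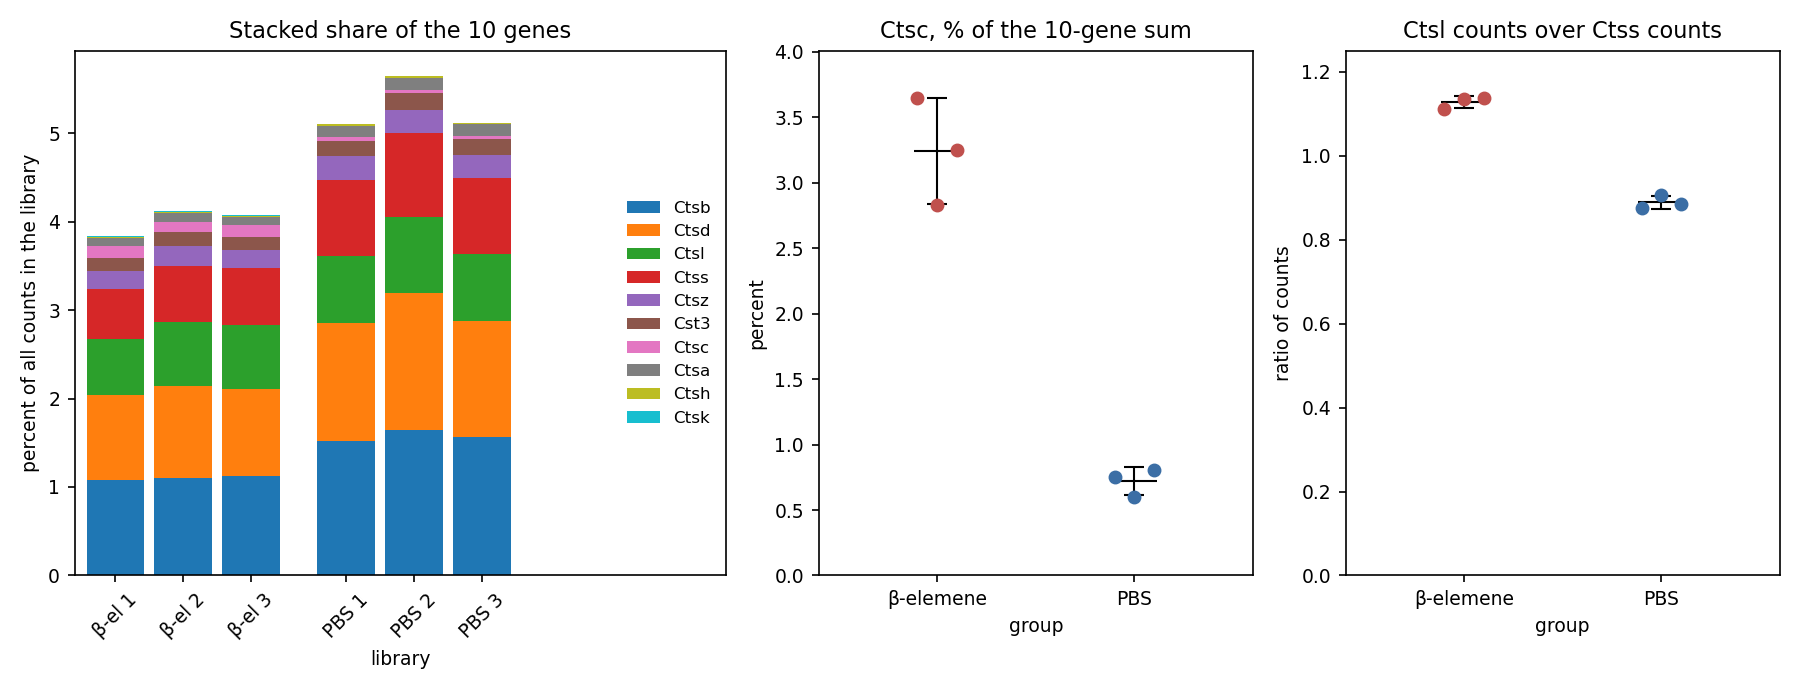
Percent of all counts taken by the 10 genes in each library (left, stacked bars), the share of Ctsc in the 10-gene sum (middle, percent) and the ratio of Ctsl to Ctss counts (right), with points for libraries and bars for mean ± SD of 3. The stacks, which are on the library-size scale, reach 3.83% to 4.11% with β-elemene, against 5.10% to 5.65% with PBS. The Ctsc share and the Ctsl to Ctss ratio stand higher with β-elemene in all 3 libraries.

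Levels were compared between genes per kilobase of the longest coding transcript with a RefSeq match, on the TMM scale. With β-elemene the order ran from Ctsd (5853 ± 209 CPM per kb) and Ctss (5651 ± 378) through Ctsl (4380 ± 345), Ctsb (2895 ± 68.0), Cst3 (2131 ± 82.2) and Ctsz (1818 ± 64.3) to Ctsc (502 ± 50.2), Ctsa (344 ± 13.1), Ctsh (77.1 ± 6.82) and Ctsk (35.2 ± 6.29), each with SD over n = 3. With PBS the first 6 stood in the same order, but Ctsc (94.2 ± 9.27 CPM per kb) lay below Ctsa (291 ± 14.6) and beside Ctsh (79.3 ± 9.50), with SD over n = 3. Ctsd and Ctss overlapped in both groups, and Ctsc and Ctsh overlapped with PBS. Ctsc thus stood above Ctsa with β-elemene and below it with PBS. The order depends on the transcript taken for each gene.

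Replicates differed little for most members. The coefficient of variation after TMM scaling was 2.35% (Ctsb) to 17.9% (Ctsk) with β-elemene, against 0.926% (Ctsz) to 12% (Ctsh) with PBS. PBS replicate 2 was the highest PBS library for 9 of the 10 genes and the lowest for Ctsc. β-elemene replicate 2 was likewise the lowest β-elemene library for Ctsc.

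Genes were ranked by how near their log2 profile over the 6 libraries lay to that of Ctsc, leaving out means under 1 CPM. The nearest were Pou2f2, Rtn1, Tor1aip1, Psme2b and Psmb9. Their Euclidean distances were 0.136 to 0.185 on the centred log2(CPM + 0.5) scale. Rtn1 averaged 1.91 CPM, a level at which the added constant shrinks differences, and edgeR put it at 3.54, well above Ctsc. For Ctsh, which had the lowest fold change, they were Zbtb9, Syp, Btbd3, Acad10 and Atp6v1d, at distances of 0.0949 to 0.130. With 6 libraries in 2 groups the profile of Ctsc is mostly the group difference. That of Ctsh, whose groups overlapped, is mostly differences among replicates.

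Several members share genomic ground with another gene, and the strand setting of the counting is not given in the sources used here. Ctsa overlaps Pltp and Neurl2 on the opposite strand, Ctsb overlaps Fdft1 and Ctsz overlaps Nelfcd. Pltp, the phospholipid transfer protein gene, had 614 ± 80.7 CPM with β-elemene and 607 ± 23.1 CPM with PBS on the TMM scale (SD, n = 3 each). Neurl2, Fdft1 and Nelfcd stood between 5.39 and 40.7 CPM in both groups, far below the cathepsin they overlap, and none of these 4 neighbours passed the edgeR test with TMM. Annotated loci also overlap Ctsc (Gm26522 and Gm44751), Ctsd (Gm49369), Ctsl (Gm47123, opposite strand) and Ctss (the pseudogene Hmgb1-ps5, same strand). These were not analysed here.

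Few other cathepsin genes were detected. Of 14 further cathepsins in the table, 9 had no count and 3 were tested. Ctso had 70.2 ± 3.89 CPM with β-elemene and 54.3 ± 4.26 CPM with PBS on the TMM scale (SD, n = 3 each), a call of higher (edgeR adjusted p = 3.09e-04) that became lower by library size alone, at -0.27. Ctse and Ctsf did not pass with TMM and were lower by library size alone.

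Among the inhibitors, Cst7 stood apart from Cst3. Cst7 encodes cystatin F, an intracellular cystatin of immune cells known to inhibit cathepsin C, and had 168, 159 and 184 CPM after TMM scaling with β-elemene, against 13.6, 14.3 and 17.1 CPM with PBS. It was 11.3-fold higher with TMM (log2 fold change 3.50, SE 0.09, edgeR adjusted p = 1.06e-12) and 7.28-fold higher by library size alone. Cstb, the cytosolic inhibitor stefin B, had 536 ± 30.1 CPM with β-elemene and 376 ± 3.36 CPM with PBS on the TMM scale (SD, n = 3 each), a log2 fold change of 0.51 (edgeR adjusted p = 3.19e-06) that became -0.12 by library size alone and did not pass there. Of 17 further cystatins and stefins in the table, these were the 2 tested, and 9 had no count. The median of the 2, 2.01, compares with -0.06 for all genes.

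Serpins inhibit serine proteases, and some also cathepsins. Of 7 tested, 4 were higher, 1 lower and 2 did not pass with TMM, against 2 higher, 2 lower and 3 not passing by library size alone, and the median was 0.65 with TMM. Serpinb9, a granzyme B inhibitor, had 127 ± 8.89 CPM with β-elemene and 15.8 ± 2.41 CPM with PBS on the TMM scale (SD, n = 3 each), and was higher on both scales, at 3.0 and 2.37. Serpina3g was higher on both as well, at 1.48 and 0.84. Serpinb6b and Serpinb8 were higher with TMM, at 0.81 and 0.65, and did not pass by library size alone. Serpina3n was lower on both, with 0, 1 and 2 counts in the β-elemene libraries against 98, 93 and 134 in the PBS libraries.

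The genes that deliver and process lysosomal enzymes were mixed. Of 12 tested, 5 were higher, 4 lower and 3 did not pass with TMM, and 4 were higher, 7 lower and 1 did not pass by library size alone. The median was 0.11 with TMM. Lgmn, the asparaginyl endopeptidase that cleaves several cathepsins to their mature chains, had 829, 844 and 951 CPM after TMM scaling with β-elemene, against 1583, 1797 and 1614 CPM with PBS. It was lower on both scales, at -0.93 (SE 0.08, edgeR adjusted p = 8.92e-08) with TMM and -1.57 by library size alone. The receptors for mannose 6-phosphate went opposite ways. M6pr, the cation-dependent receptor, had 838 ± 16.1 CPM with β-elemene and 436 ± 13.1 CPM with PBS on the TMM scale (SD, n = 3 each), and was higher on both scales, at 0.94 and 0.31. Igf2r, the cation-independent receptor, had 192 ± 25.5 CPM with β-elemene and 346 ± 12.3 CPM with PBS on the TMM scale (SD, n = 3 each), and was lower on both, at -0.85 and -1.48.

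Gnptab, which begins the mannose 6-phosphate tag, was higher on both scales, at 0.87 and 0.24, and Nagpa, which completes it, was lower on both, at -0.39 and -1.02. Of the sorting genes, Sorl1 (1.45 and 0.81) and Scarb2 (0.98 and 0.35) were higher on both scales and Gga2 was lower on both (-1.56 and -2.19), with TMM given first in each pair. Gga1 was higher with TMM (0.51) and did not pass by library size alone (-0.13).

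**Figure D4:**
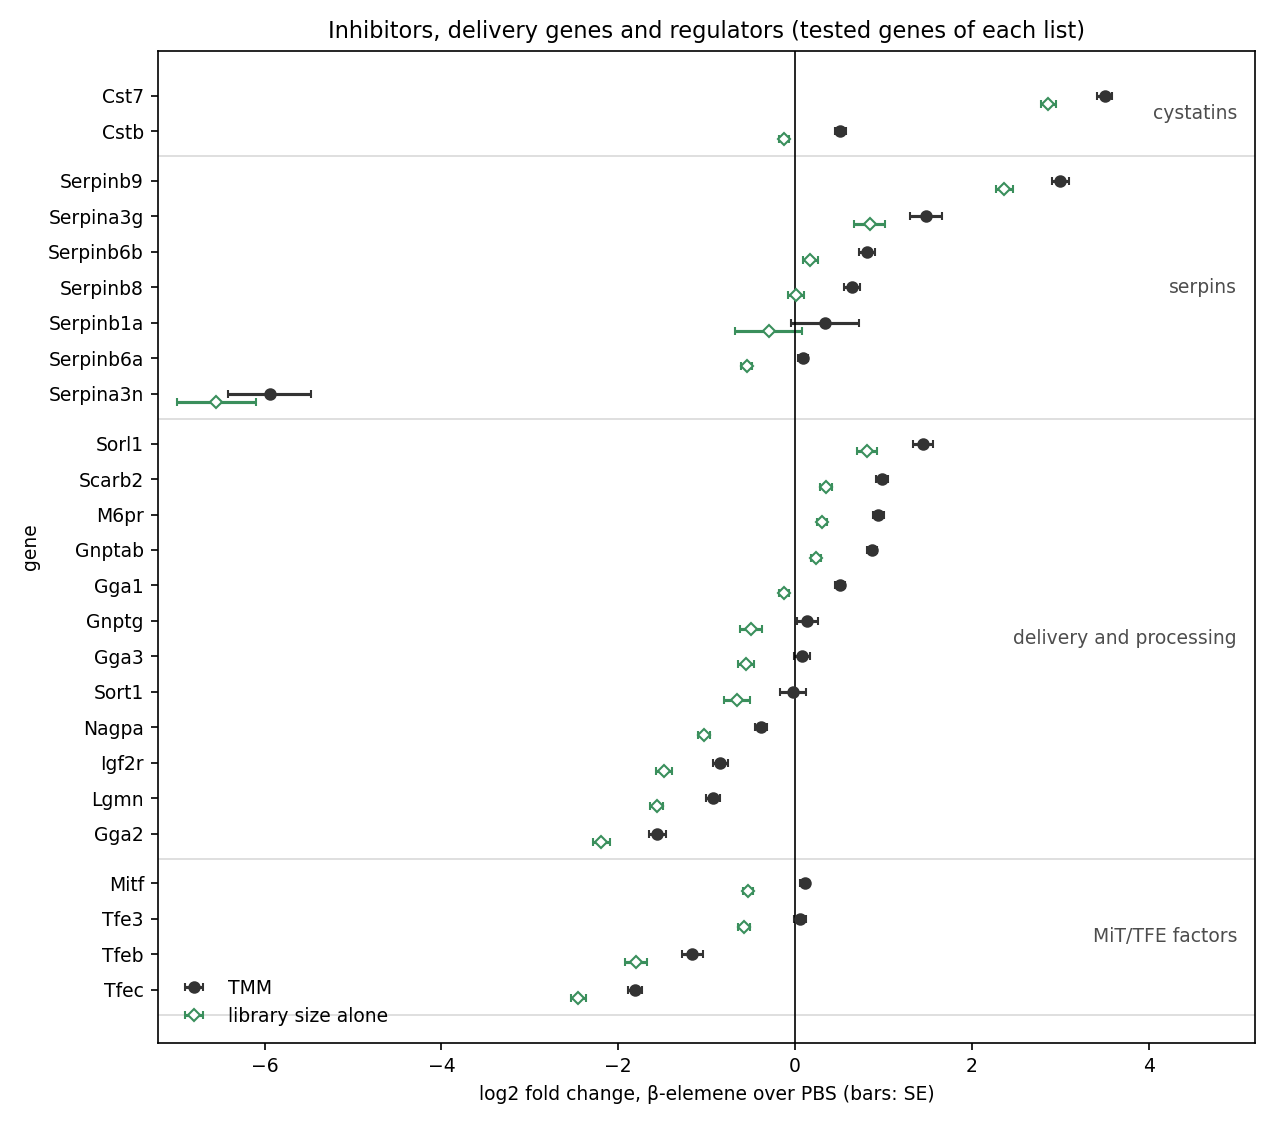
Log2 fold change (x axis, β-elemene over PBS, bars for SE) of the tested inhibitors, delivery genes and transcription factors, with filled circles for TMM and open diamonds for library size alone. Cst7, Serpinb9, Sorl1, Scarb2, M6pr and Gnptab are higher on both scales, and Lgmn, Igf2r, Gga2, Tfeb and Tfec are lower on both.

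Of the 4 MiT/TFE transcription factor genes, which encode known activators of lysosomal genes, 2 were lower and 2 did not pass with TMM, and all 4 were lower by library size alone. Tfec had 45, 53.7 and 44.5 CPM after TMM scaling with β-elemene, against 158, 168 and 177 CPM with PBS (log2 fold change -1.81, SE 0.08, edgeR adjusted p = 1.34e-10). Tfeb had 17.5, 23.2 and 16.3 CPM with β-elemene, against 44.3, 44.3 and 38.6 CPM with PBS (-1.16, SE 0.12, edgeR adjusted p = 3.03e-06). Tfe3 and Mitf stood at 0.06 and 0.11 with TMM, and were both called higher without β-elemene replicate 3, while DESeq2 called 1 gene of the list higher. The list's median of -0.55 compares with -0.06 for all genes.

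Of 9 partners and other lysosomal peptidases tested, 3 were higher, 3 lower and 3 did not pass with TMM, and 9 were lower by library size alone. The median with TMM was 0.03, and 1 was higher without PBS replicate 1 or without PBS replicate 3. Scpep1, a serine carboxypeptidase, was at 0.45 with TMM and -0.19 by library size alone. Ifi30, the lysosomal thiol reductase, was lower on both scales, at -0.53 and -1.17, as were Prcp (-0.25 and -0.89) and Tpp1 (-0.16 and -0.79). Over the alternatives tried the adjusted p of Tpp1 reached 0.153, so its call did not hold under all of them. Of 9 class II presentation genes tested, 1 was higher, 3 lower and 5 did not pass with TMM (median 0.09), and 1 was higher and 6 lower by library size alone, but without PBS replicate 3 there were 5 higher with TMM. H2-Oa, a class II-like chain, was higher on both scales, at 2.10 and 1.46. Ciita, the class II transactivator (-1.60 and -2.24), H2-DMa (-0.76 and -1.39) and H2-DMb2 (-0.54 and -1.18) were lower on both. The groups of H2-DMb2 overlapped on the TMM scale, and its adjusted p reached 0.0904 over the alternatives tried.

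The libraries carried macrophage markers throughout, with Lyz2 at 9203 ± 398 CPM with β-elemene and 6776 ± 378 CPM with PBS on the TMM scale (SD, n = 3 each). Of 10 macrophage markers 8 were higher and 2 lower with TMM, against 4 and 5 by library size alone. Csf1r, the receptor for macrophage colony-stimulating factor, was lower on both scales, at 928 ± 66.1 CPM with β-elemene and 2672 ± 82.3 CPM with PBS on the TMM scale (SD, n = 3 each). Of 7 carcinoma or epithelial markers, Krt19 and Cldn4 had 0 counts, Epcam, Krt8, Krt18 and Krt7 had 0 to 2 per library, and Cdh1 had 0, 2 and 0 counts with β-elemene against 3758, 3054 and 3574 with PBS. Dendritic cell markers were 2 higher and 2 lower of 4 tested, fibroblast markers 1 higher and 3 lower of 5, and the T or B cell marker tested did not pass, all with TMM. Beside the higher level of Ctsc, 9 neutrophil markers summed to 34.6 to 50.3 CPM with β-elemene and 21.7 to 23.6 CPM with PBS on the TMM scale. Of 7 tested, 4 were higher and 1 lower with TMM, against 3 higher and 1 lower by library size alone. Mpo, the lower gene on both scales, had 5, 1 and 1 counts with β-elemene against 33, 52 and 34 with PBS. Ly6g had 0 to 3 counts per library. Of 6 mast cell markers 1 was tested, Hdc, higher at 171 ± 19.4 CPM with β-elemene and 10.6 ± 4.47 CPM with PBS on the TMM scale (SD, n = 3 each). Of the other mast cell markers, Fcer1a had 0 counts, and Cpa3 had 0 to 5 per library, Ms4a2 0 to 3, Mcpt4 0 to 1 and Kit 4 to 18. Their part in the level of Ctsc was not tested.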

How the data were processed

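Per the labels' protocols, stranded mRNA libraries were prepared from total RNA that had an integrity number of 7 or more, and paired ends were read. HISAT2 2.2.1.0, GRCm38.p6 and mm10 are named in the submitters' processing notes. The values deposited by the authors are unnormalized read counts for each gene. Neither the counting tool nor its strand setting is given in the sources used here. Sample titles gave group and replicate number.

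Genes were kept by filterByExpr (count minimum 10, total minimum 15). Libraries were scaled with TMM, whose factors were 0.794 to 0.812 for β-elemene and 1.24 to 1.26 for PBS. Group was tested with the robust quasi-likelihood fit of edgeR 4.0.16 (R 4.3.3), and p was adjusted after Benjamini and Hochberg across the whole tested table, with calls at 0.05. SE is the size of the log2 fold change over the root of F. Alternatives were median-of-ratios, upper-quartile and library-size scaling, other filters, DESeq2 1.42.0, limma-voom (limma 3.58.1), a replicate block and leaving out each library. The scripts were tested on simulated data in which far fewer genes changed than were called here. That test therefore does not bear on the choice of scaling. Replicates differed beyond sampling noise in each pair (chi-square per degree of freedom 3.70 to 13.2).

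Spreadsheet date numbers in place of 27 symbols were restored through gene identifiers. Coordinates and promoters are RefSeq's on GRCm38.p6, and transcript lengths and overlaps are from GENCODE M21 on the same assembly. The members and lists were chosen with earlier results of these data known. Named beside the members were up to 4 passing genes per list and direction with a mean of at least 1 CPM, the 5 nearest profiles, and overlapping or neighbouring genes. Gga1, marker genes, genes that did not pass, and serine proteases named beyond that were chosen after their values were seen.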

Additional observations from a re-analysis of the deposited data

How the results depend on the processing

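Scaling decided the calls. With the upper quartile 1 of 10 members was higher and 3 lower (Ctsb, Ctsh and Ctss), where 2947 of 11459 genes were higher and 6528 lower. By library size alone 1 was higher and 9 lower. Of all genes, 2166 were then higher and 8003 lower, in place of 4189 and 4602 with TMM. Signs turned with the upper quartile for Ctsa (-0.070), Ctsb (-0.20), Ctsd (-0.17), Ctsk (-0.14), Ctss (-0.21) and Ctsz (-0.016). By library size alone they turned for Ctsa (-0.39), Ctsb (-0.52), Ctsd (-0.49), Ctsk (-0.46), Ctsl (-0.19), Ctss (-0.53), Ctsz (-0.34) and Cst3 (-0.29). These alternatives differ from TMM in the scaling factor alone. DESeq2 called 7 of 10 members higher, where it called 4266 of all genes higher and 4211 lower. The log2 fold change of Ctsh, not called with TMM, was 0.03 without β-elemene replicate 2 and 0.052 without PBS replicate 2, within a range of -0.12 to 0.052 over the libraries left out. The log2 fold change of Ctsc stayed between 1.78 and 2.52 under the alternatives run. The difference in the Cst3 percentage was 0.209 to 0.486 percentage points over the libraries left out.

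With a replicate block 5 members were higher and 0 lower, as without it, and 4188 genes were higher and 4605 lower. Same-numbered libraries deviated together with correlations of -0.0236, 0.0773 and 0.0302, none over 0.1. β-elemene replicates 2 and 3 correlated best with their own number and β-elemene replicate 1 with PBS replicate 3 (0.0557), so the numbers were not taken to pair the samples. The scarcest member, Ctsk, had 702 to 1341 counts per library.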

Other observations

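Transcripts of the granule serine proteases that cathepsin C is known to activate were scarce. Of 12 such genes 2 had no count and 2 were tested, of which 1 was higher (Gzmb) and 1 lower (Gzmm) on both scales. Gzmb, granzyme B, had 11, 12 and 51 counts in the β-elemene libraries against 2, 0 and 3 in the PBS libraries, and β-elemene replicate 3 held most of them. Gzmm, granzyme M, had 0, 3 and 0 counts with β-elemene against 10, 11 and 16 with PBS. Mcpt8 was not tested and had 9, 8 and 15 counts with β-elemene against 0, 2 and 2 with PBS. Gzmc, not tested either, had 7, 8 and 17 counts with β-elemene against 1, 4 and 0 with PBS. The neutrophil protease genes Elane and Prtn3, also not tested, went the other way in counts. Elane had 0, 0 and 1 counts with β-elemene against 6, 3 and 12 with PBS, and Prtn3 had 1, 2 and 4 counts with β-elemene against 10, 9 and 9 with PBS. The 12 genes summed to 2.09 to 5.83 CPM with β-elemene and 1.24 to 1.83 CPM with PBS on the TMM scale.

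The protein-coding neighbour nearest to Ctsc downstream, Rab38, a small GTPase gene 114411 bases away on the same strand, had 2.25 ± 0.0348 CPM with β-elemene and 0.505 ± 0.142 CPM with PBS on the TMM scale (SD, n = 3 each). It was called higher, at 2.14 with TMM (edgeR adjusted p = 1.96e-05) and 1.51 by library size alone.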
